A study of Mus musculus with 6 samples.

Results

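The carbonic anhydrase genes described here are the 10 rows of the deposited expression table named Car2, Car3, Car4, Car5b, Car7, Car9, Car11, Car12, Car13 and Car14, out of 78298 genes. They were selected on family name with their TPM values in both groups already known, so those values are given as a description, and no p-value is given for them. The table also holds 6 other genes of the family, Car1, Car5a, Car6, Car8, Car10 and Car15, which were not chosen and are used for comparison. The samples were mouse cells of wild-type genotype, 3 libraries of embryonic stem cells (ESCs), which stand for the naive epiblast of the blastocyst, and 3 of epiblast-like cells (EpiLCs), which ESCs form on their way to the state of the implanted epiblast. All 6 libraries came from a single line, BVSC clone H18, so nothing here samples other lines. The labels call the replicates biological, but culture media, the length of the EpiLC step and how the replicate cultures were separated are not given in the sources used here, and replicate spread may therefore be partly technical.

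Carbonic anhydrases are zinc enzymes that interconvert carbon dioxide and water with bicarbonate and a proton. The family is divided by where the protein works. Car2, Car3, Car7 and Car13 are cytosolic, Car5b sits in mitochondria, Car4 is tied to the outer face of the plasma membrane by a lipid anchor, and Car9, Car12 and Car14 span the membrane with the catalytic domain outside. Car11 is a related protein without the catalytic activity. Such enzymes set how fast bicarbonate and protons are handled on each side of the membrane, and bicarbonate transporters, proton exchangers and lactate carriers work beside them.

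Levels are in TPM, an abundance unit that scales each gene for transcript length and sets each library to the same total, so that genes can be compared with each other within a library. Every library summed to 1000000 TPM and 13610 to 13983 genes reached 1 TPM in a library, while the sequencing depth is unknown. In bulk RNA, fewer cells that express a gene and less RNA per cell cannot be told apart. All 6 naive pluripotency markers examined were below their ESC range in every EpiLC library, and all 5 post-implantation epiblast markers were above it. Markers of other cell types were low, with summed levels of 5.30 to 6.59 TPM in ESCs and 7.58 to 11.3 TPM in EpiLCs for 8 primitive endoderm genes, 3.18 to 5.70 and 12.6 to 15.9 TPM for 6 fibroblast genes, 1.83 to 2.53 and 9.10 to 18.2 TPM for 3 neural genes, 6.56 to 8.14 and 3.54 to 4.25 TPM for 5 mesoderm genes and 3.36 to 6.57 and 5.81 to 8.19 TPM for 5 trophoblast genes. Every EpiLC library was above every ESC library for 3 of the 8 endoderm, 4 of the 6 fibroblast, 2 of the 3 neural, 1 of the 5 mesoderm and 2 of the 5 trophoblast genes, and below for 4, 1, 0, 2 and 0. None of these genes was at 0 in all libraries, though the fibroblast genes Col3a1 and Lum did not exceed 0.0287 and 0.0150 TPM. The part of such cells in the carbonic anhydrase values was not tested.

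In ESCs the family was carried by cytosolic enzymes, Car13 first and Car2 second. In EpiLCs Car4 and Car2 were the most abundant, at 127 ± 37.2 and 92.5 ± 10.1 TPM (mean ± SD, n = 3), and Car13 was at 9.05 ± 1.38 TPM. The 10 genes together reached 40.7 ± 1.76 TPM in ESCs and 248.6 ± 43.8 TPM in EpiLCs, a ratio of 6.11. The 4 membrane-bound genes made up 2.95% to 3.23% of this sum in the ESC libraries and 49.4% to 61.5% in the EpiLC libraries. Most of the latter was Car4, which alone made up 43.75% to 56.61% in the EpiLC libraries. Car9, Car12 and Car14 each made up at most 3.29% there.

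**Figure D1:**
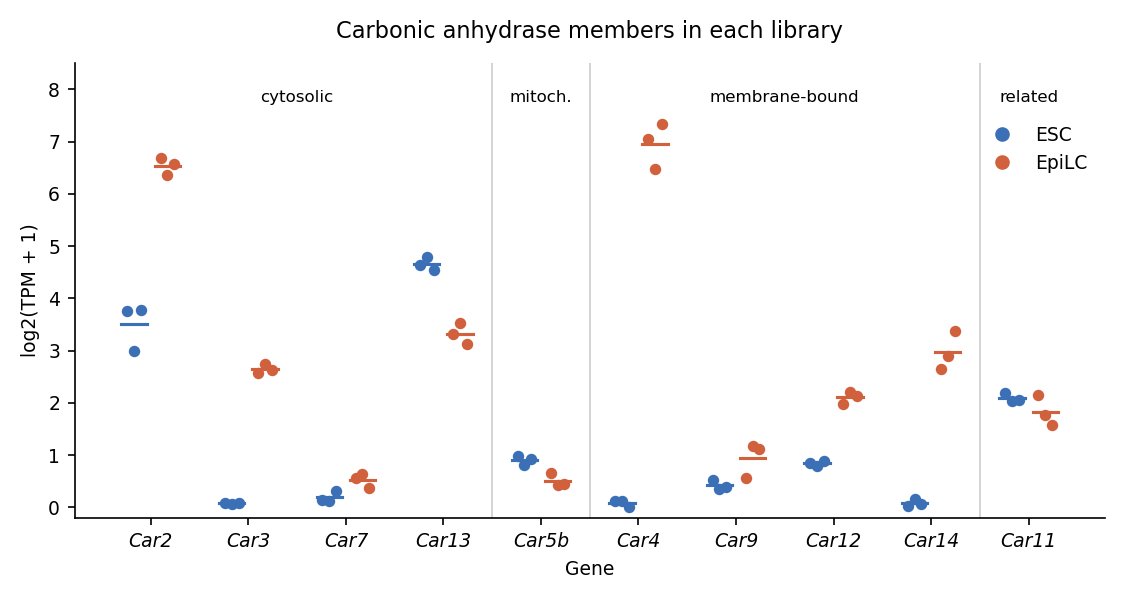
Level of each of the 10 carbonic anhydrase genes in each library, as log2(TPM + 1), ordered by the site of the protein. Points are libraries (3 ESC and 3 EpiLC) and bars are group means. Car3, Car4 and Car14 lie near 0 in ESCs, and Car13 and Car5b are the genes whose EpiLC points all lie below their ESC points.

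The promoters of the 4 membrane-bound genes are shown because they include Car4, the one of the 10 genes with the largest log2 difference between the states, and Car9, a known target of the hypoxia-inducible factor HIF, which binds the core letters ACGTG or GCGTG. Each sequence runs 5′ to 3′ along the gene, from 250 bases before to 50 bases after the start annotated by RefSeq on GRCm38.p6, a build other than the GRCm39 build of the expression table. Capitals mark matches, on either strand, to ACGTG or GCGTG, to the E-box CACGTG, which contains ACGTG, to the TATA box TATAAA or to the GC box GGGCGG.

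Car4, chr11:84957504-84957803, plus strand: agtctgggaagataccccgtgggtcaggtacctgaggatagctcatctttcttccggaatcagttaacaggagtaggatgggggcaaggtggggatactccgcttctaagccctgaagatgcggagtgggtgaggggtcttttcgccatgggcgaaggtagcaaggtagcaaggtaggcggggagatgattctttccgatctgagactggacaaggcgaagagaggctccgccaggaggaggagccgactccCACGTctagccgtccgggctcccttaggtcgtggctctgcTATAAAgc

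Car9, chr4:43506776-43507075, plus strand: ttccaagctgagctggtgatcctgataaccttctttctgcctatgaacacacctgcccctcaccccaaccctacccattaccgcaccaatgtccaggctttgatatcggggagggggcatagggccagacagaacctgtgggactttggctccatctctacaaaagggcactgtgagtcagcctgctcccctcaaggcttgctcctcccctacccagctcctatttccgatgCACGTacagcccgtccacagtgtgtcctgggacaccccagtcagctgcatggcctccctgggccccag

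Car12, chr9:66713436-66713735, plus strand: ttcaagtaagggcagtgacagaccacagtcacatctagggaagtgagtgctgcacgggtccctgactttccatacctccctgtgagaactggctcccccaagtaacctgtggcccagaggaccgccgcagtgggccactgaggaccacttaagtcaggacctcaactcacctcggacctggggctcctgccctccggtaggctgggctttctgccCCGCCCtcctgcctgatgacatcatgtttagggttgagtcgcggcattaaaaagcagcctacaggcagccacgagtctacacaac

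Car14, chr3:95904636-95904935, minus strand: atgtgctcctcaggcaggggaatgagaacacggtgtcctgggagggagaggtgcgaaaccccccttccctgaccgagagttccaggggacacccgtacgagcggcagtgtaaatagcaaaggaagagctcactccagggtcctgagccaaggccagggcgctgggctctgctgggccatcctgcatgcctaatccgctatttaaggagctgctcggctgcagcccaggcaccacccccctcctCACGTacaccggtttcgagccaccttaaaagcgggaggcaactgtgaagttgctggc

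The letters ACGTG were found in 3 of these 4 windows, once each in Car4, Car9 and Car14, and in 19.6% of 32817 RefSeq promoter windows of the same length. Each match was on the reverse strand (written CACGT), beginning at position 3 after the annotated start in Car4, at -18 in Car9 and at -7 in Car14. None was part of the E-box CACGTG, which 7.15% of all windows hold. GCGTG, held by 32.4% of windows, was in none of the 4. Over the 7 members with an entry, ACGTG was found in 3 and GCGTG in 3, the latter being Car5b, Car7 and Car11. Car7 and Car11 had more than a single window each, while the percentages count windows. Of the family genes that were not chosen, Car6 and Car10 also held ACGTG, in Car6 within CACGTG, and Car5a and Car15 did not. Car4 held TATAAA (13.6% of windows), beginning at position 43 after the annotated start and not before it. Car12 held GGGCGG (35.6% of windows) on the reverse strand, beginning at -35. The windows contained 15 CpG dinucleotides in Car4, 13 in Car14, 9 in Car12 and 5 in Car9, against a median of 7 over all windows. ACGTG itself contains a CpG, and the shares over all windows were not matched for CpG count. A match describes letters in a window and does not show binding. RefSeq windows were given for 7 of the 10 genes, and Car2, Car3 and Car13 had no entry.

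Among the membrane-bound enzymes, Car4 (ENSMUSG00000000805, chromosome 11) was at 0.0896, 0.0892 and 0 TPM in ESC replicates 1 to 3 and at 132, 87.5 and 161 TPM in the EpiLC replicates. It was thus close to 0 in every ESC library and among the well-expressed genes in every EpiLC library, where its mean ranked 1227 among all genes. The difference between group means of log2(TPM + 1), EpiLC minus ESC and called the log2 difference from here on, was 6.87 (SE 0.20). Each SE given here comes from the limma fit described below. It borrows variance across all tested genes, so it does not measure the replicate spread of that gene alone. The EpiLC libraries differed by 1.85-fold between the lowest, replicate 2, and the highest, replicate 3.

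Car14 (ENSMUSG00000038526, chromosome 3), a transmembrane enzyme, was at 0.0210, 0.116 and 0.0425 TPM in ESCs and at 5.25, 6.45 and 9.39 TPM in EpiLCs. Its groups were far apart, with a log2 difference of 2.89 (SE 0.19). Car12 (ENSMUSG00000032373, chromosome 9), another transmembrane enzyme, was at 0.811, 0.726 and 0.844 TPM in ESCs and at 2.94, 3.64 and 3.37 TPM in EpiLCs. It was present at a low level in both states and higher in each EpiLC library, by 1.26 on the log2 scale (SE 0.12), with little spread within groups. Car9 (ENSMUSG00000028463, chromosome 4) stayed low, at 0.447, 0.278 and 0.315 TPM in ESCs and 0.481, 1.25 and 1.16 TPM in EpiLCs. EpiLC replicate 1 lay just above the highest ESC library, so the log2 difference of 0.52 rested on EpiLC replicates 2 and 3.

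Because 1 is added before the logarithm, differences of genes near 0 in ESCs depend on that constant. With 0.1 added instead, the log2 differences were 9.65 for Car4, 5.48 for Car14, 5.09 for Car3 and 1.93 for Car12.

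**Figure D2:**
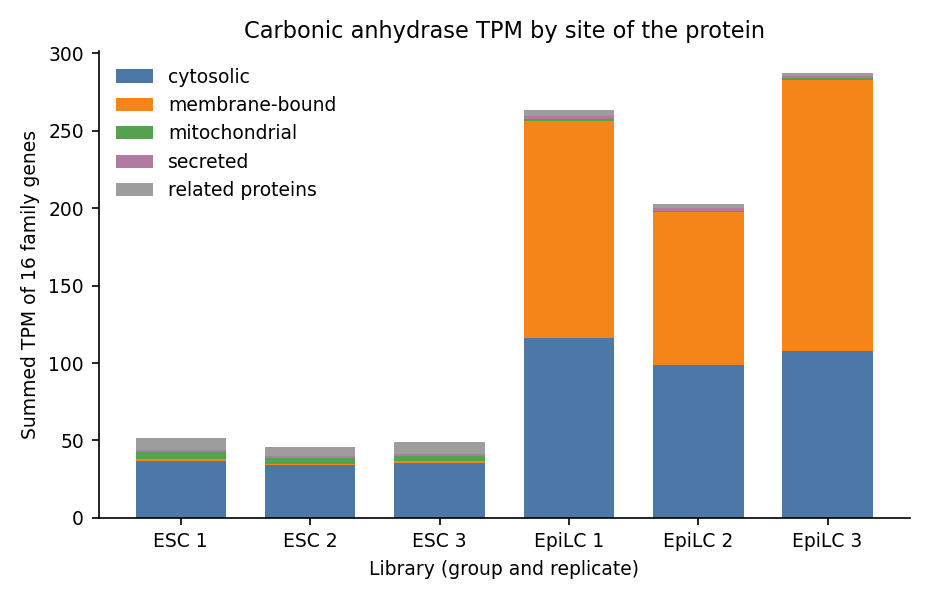
Summed TPM of 16 carbonic anhydrase family genes in each library, stacked by the site of the protein (bars start at 0). The summed level is 46.0 to 51.8 TPM in the ESC libraries and 203 to 287 TPM in the EpiLC libraries. The membrane-bound genes go from at most 1.37 TPM to at least 98.8 TPM, most of it Car4, which is at 87.5 TPM or more in the EpiLC libraries.

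Among the cytosolic enzymes, Car2 (ENSMUSG00000027562, chromosome 3), the widely expressed isoform with very high activity, was at 12.5, 6.95 and 12.7 TPM in ESCs and 102, 81.6 and 94.3 TPM in EpiLCs. ESC replicate 2 was the low library in its group, and the ratio of the group means was 8.63. The log2 difference was 3.03 (SE 0.20), or 2.78 to 3.17 with any single library left out. Car2 is also abundant in red blood cells. The summed level of 5 erythroid markers was 12.8 TPM in ESC replicate 2 against 0.357 to 4.71 TPM in the other libraries. The red cell isoform Car1 was listed at 0 in all 6 libraries, and the part of red cells in the Car2 values was not tested. Car3 (ENSMUSG00000027559, chromosome 3), a low-activity isoform known from muscle and fat, was at 0.0643, 0.0427 and 0.0650 TPM in ESCs and 4.91, 5.74 and 5.16 TPM in EpiLCs. The EpiLC libraries agreed within a coefficient of variation of 8.10%, and the log2 difference was 2.57 (SE 0.12).

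Car13 (ENSMUSG00000027555, chromosome 3) went the other way, with 23.8, 26.8 and 22.5 TPM in ESCs and 8.91, 10.5 and 7.74 TPM in EpiLCs. Every EpiLC library was below every ESC library, the ESC mean being 2.69 times the EpiLC mean (log2 difference -1.34, SE 0.12). Car7 (ENSMUSG00000031883, chromosome 8), a cytosolic isoform known from the brain, was at 0.0970, 0.0956 and 0.251 TPM in ESCs and 0.476, 0.567 and 0.293 TPM in EpiLCs. These levels are all under 1 TPM and the nearest libraries of the groups almost touched.

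The 3 genes Car13, Car3 and Car2 lie in a row on chromosome 3 with Car1 between Car13 and Car3, in the order Car13, Car1, Car3, Car2 in the GENCODE M21 annotation. Car1 is on the minus strand and the others are on the plus strand. Along this row, Car13 was lower in EpiLCs, Car1 was listed at 0, and Car3 and Car2 were higher. Car3 and Car2 are direct neighbours, with ESC means of 0.0573 and 10.7 TPM and EpiLC means of 5.27 ± 0.427 and 92.5 ± 10.1 TPM. Their log2 differences were 2.57 and 3.03 with 1 added, but 5.09 and 3.14 with 0.1 added, so which of them differed more depends on that constant.

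**Figure D3:**
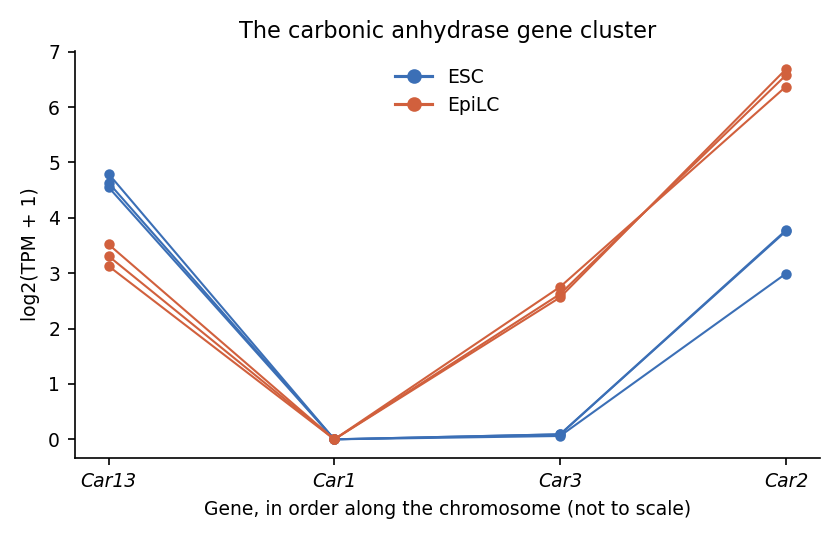
Level, as log2(TPM + 1), of the 4 genes of the chromosome 3 cluster in their order along the chromosome, with 1 line per library. The ESC lines lie above the EpiLC lines at Car13 and below them at Car3 and Car2, and all lines meet at 0 at Car1.

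Outside these classes, the mitochondrial isoform Car5b (ENSMUSG00000031373, X chromosome) was at 0.967, 0.749 and 0.898 TPM in ESCs and 0.578, 0.342 and 0.366 TPM in EpiLCs. It was lower in each EpiLC library, by 0.39 on the log2 scale, at levels under 1 TPM throughout. Car11 (ENSMUSG00000003273, chromosome 7), the related protein without catalytic activity, was at 3.58, 3.10 and 3.18 TPM in ESCs and 3.44, 2.42 and 1.97 TPM in EpiLCs. Its groups overlapped, since EpiLC replicate 1 lay within the ESC range (log2 difference -0.27, SE 0.16).

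In order of mean TPM, the ESC libraries ranked Car13, Car2, Car11, Car5b, Car12, Car9, Car7, Car14, Car4 and Car3. The ranges over libraries overlapped between Car5b and Car12, though Car5b was above Car12 within each ESC library. They also overlapped between consecutive genes among the last 4, whose order changed between libraries and is not resolved. In EpiLCs the order was Car4, Car2, Car13, Car14, Car3, Car12, Car11, Car9, Car7 and Car5b. There the ranges overlapped between Car4 and Car2, between Car13 and Car14, between Car14 and Car3, between Car12 and Car11, and among the last 3. Within each EpiLC library, however, Car4 was above Car2, Car14 above Car3 and Car9 above Car7. The order changed between libraries for Car13 and Car14, for Car12 and Car11, and for Car7 and Car5b. ESC replicate 2 held the lowest ESC value for 7 of the 10 genes.

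The comparison of the states over all genes used limma on log2(TPM + 1) for the 14036 genes with a mean of at least 1 TPM. Of these, 66.9% passed a Benjamini-Hochberg adjusted p of 0.05, with 36.1% higher and 30.9% lower in EpiLCs. Of the 10 carbonic anhydrase genes, 7 entered that test, and Car5b, Car7 and Car9 were too low. Among the 7, 5 were called higher (Car2, Car3, Car4, Car12 and Car14), 1 lower (Car13) and 1 neither (Car11), and the groups did not overlap for the same 5 and 1 genes. Over all tested genes, every EpiLC library was above every ESC library for 38.4% and below for 33.1%. Nothing is read from the counts of the 7, since these genes were chosen with the contrast known and Car3, Car4, Car12 and Car14 entered the test through their EpiLC values.

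Of the 6 family genes that were not chosen, 3 could be tested, of which 2 fell and Car6 was not called. Their median fold change on the log2 scale was -1.23 against 0.04 for all tested genes. Both genes that fell had EpiLC means under 1 TPM and entered the test through their ESC values, so the filter favours that direction and nothing is read from the count or the median. Car8, a related protein without catalytic activity that binds the inositol trisphosphate receptor, fell from 4.04 ± 1.15 to 0.162 ± 0.115 TPM (log2 difference -2.10 ± 0.19 SE, n = 3 per group, adjusted p = 4.3e-05 by limma). Car5a, the mitochondrial isoform known from liver, fell from 2.86 ± 0.545 to 0.644 ± 0.154 TPM (log2 difference -1.23 ± 0.15 SE, adjusted p = 1.9e-04 by limma). Every EpiLC library was below every ESC library for both. With 0.1 added the log2 differences were -4.04 for Car8 and -2.00 for Car5a. Car6, the secreted isoform of saliva, was at 1.42 ± 0.346 and 1.73 ± 0.551 TPM in the respective states and was not called (limma adjusted p = 0.464). Car10 and Car15 did not exceed 0.264 and 0.0631 TPM in any library. Taken over both mitochondrial isoforms, Car5a and Car5b, the summed level was 3.36 to 4.46 TPM in the ESC libraries and 0.829 to 1.23 TPM in the EpiLC libraries, while that of the 3 related proteins was 5.87 to 8.20 and 2.21 to 3.85 TPM.

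The protein-coding genes on either side of the 10 members were examined to see whether neighbours shared their differences. Of 16 flanking genes outside the family, 14 were tested, 5 were higher, 4 were lower and 5 were not called. The share called, 64.3%, was near the 66.9% of all tested genes, so the counts are no result about the neighbours. Beside Car4, Znhit3 was at 26.2 ± 1.25 and 27.5 ± 1.24 TPM and Usp32 at 14.3 ± 1.15 and 15.3 ± 0.539 TPM, and neither was called (limma adjusted p = 0.404 and 0.351). Beside Car14, Aph1a, a gamma-secretase subunit gene, fell by 0.27 and Anp32e rose by 0.58 as log2 differences (limma adjusted p = 0.0060 and 7.4e-05). Beside Car12, Usp3 fell by 0.54 (limma adjusted p = 0.016) and Aph1b was not called (limma adjusted p = 0.456). Next to Car9, the tropomyosin gene Tpm2 rose from 7.45 ± 0.680 to 55.2 ± 5.12 TPM (log2 difference 2.73, adjusted p = 4.9e-07 by limma) and Arhgef39 rose by 0.61. Rbis, before Car13, rose by 0.57 where Car13 was lower, and Sirpd, after Car2, was listed at 0 in all libraries.

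**Figure D4:**
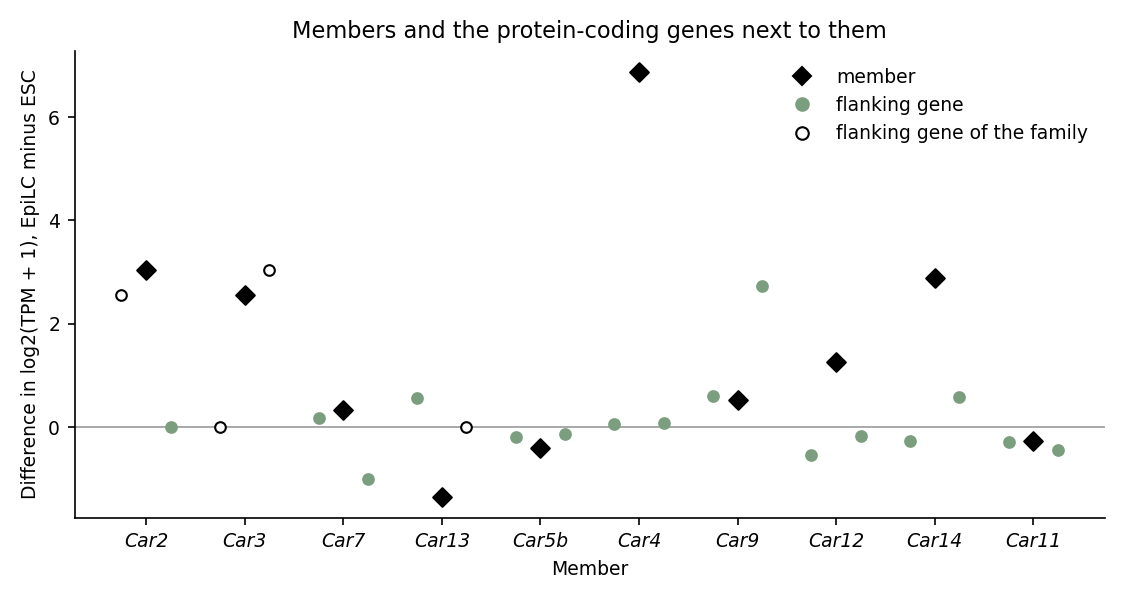
Difference in log2(TPM + 1), EpiLC minus ESC, for each of the 10 members (diamonds) and for the nearest protein-coding gene before (left circle) and after (right circle) it; open circles are family genes. Both genes beside Car4 lie near 0 (0.07 and 0.09) while Car4 is at 6.87, and at Car9 a neighbour, Tpm2, is higher than Car9 itself.

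By distance in log2(TPM + 1) over the 6 libraries, the 4 genes nearest to Car4 were Myc, Crmp1, Enpp3 and Cthrc1, at distances of 2.46 to 2.91. All were below 2 TPM on average in ESCs and between 44.9 and 77.1 TPM in EpiLCs, so even the nearest was less abundant in EpiLCs than Car4. The 5 nearest to Car13, the member with the largest decrease, were Aga, Fah, Plscr1, Yipf1 and Ikbip, at distances of 0.28 to 0.40. Their levels were 21.8 to 26.6 TPM in ESCs and 9.17 to 9.69 TPM in EpiLCs. These lists describe likeness over 6 libraries in 2 groups only.

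Genes that work beside carbonic anhydrases, and genes that respond to hypoxia, were counted in 5 lists. The background was the 66.9% of all tested genes that were called. The lists were chosen with earlier results of these data known, so a share or median that differs from that of all genes is a description only. Of 6 genes of lactate and proton cotransport, 4 were tested, 3 rose and 1 fell (100% called). The median of the tested genes was 1.42 on the log2 scale, against 0.04 for all tested genes. Slc16a3, the lactate exporter MCT4, rose from 19.9 ± 0.685 to 174 ± 18.1 TPM (log2 difference 3.06 ± 0.08 SE, adjusted p = 2.1e-07 by limma). Emb, the embigin gene, whose protein is an ancillary subunit of lactate carriers, rose from 30.1 ± 2.89 to 160 ± 20.3 TPM (log2 difference 2.37 ± 0.10 SE, adjusted p = 1.1e-06 by limma). Slc16a1, the carrier MCT1, rose by 0.46, and Bsg, the other ancillary subunit, fell by 0.37 from a high level of 661 ± 25.4 TPM. Slc16a7 reached 0.665 ± 0.0653 TPM in EpiLCs and Slc16a8 did not exceed 0.183 TPM in any library, and neither was tested.

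Of 14 bicarbonate transporter genes, 6 were tested, 3 rose and 1 fell (median 0.29). The share called was 66.7%, near that of all tested genes. The sodium bicarbonate cotransporter Slc4a7 rose from 23.4 ± 1.18 to 48.3 ± 5.91 TPM (log2 difference 1.01 ± 0.09 SE, adjusted p = 4.1e-05 by limma), and Slc4a8 and Slc4a3 rose by 0.52 and 0.63. Slc4a3, at 0.591 TPM in ESCs, entered the test through its EpiLC values, which favours that direction, and its log2 difference was 1.17 with 0.1 added. Slc4a5, another sodium bicarbonate cotransporter, fell from 43.7 ± 5.54 to 21.6 ± 5.77 TPM (log2 difference -1.01 ± 0.19 SE, adjusted p = 0.0020 by limma). The anion exchanger Slc4a2 was at 3.70 ± 0.840 and 3.82 ± 0.189 TPM and was not called. Slc26a6, named after its values were seen, was at 3.94 ± 0.138 and 2.95 ± 0.618 TPM and lay near the threshold (log2 difference -0.34, limma adjusted p = 0.058). It was called lower in 6 of 14 alternatives, among them without EpiLC replicate 2 (adjusted p = 0.016, range over alternatives 0.016 to 0.162).

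Of 10 sodium proton exchanger genes, 6 were tested, 3 rose and 2 fell (median 0.33, 83.3% called). Slc9b2 and Slc9a7 rose by 1.81 and 0.89, to 3.37 ± 0.602 and 1.73 ± 0.474 TPM. Both were under 1 TPM in ESCs and entered the test through their EpiLC values, which favours that direction, and with 0.1 added the log2 differences were 3.44 and 1.70. Slc9a5 passed only narrowly, from 3.90 ± 0.402 to 6.91 ± 2.80 TPM (limma adjusted p = 0.045), and lost the call in 10 of 15 alternatives, among them leaving out any single library other than EpiLC replicate 3 (adjusted p between 0.076 and 0.123, range over alternatives 0.0050 to 0.124). Without EpiLC replicate 2 its log2 difference was 0.37 instead of 0.63. Slc9a8 was at 7.39 ± 0.869 and 7.60 ± 1.79 TPM and was not called.

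Among enzymes that fix bicarbonate, 9 genes were examined and 8 were tested, of which 2 rose and 5 fell (median -0.38, 87.5% called). Acaca, the acetyl-CoA carboxylase of fatty acid synthesis, rose from 44.7 ± 1.77 to 98.7 ± 12.2 TPM (log2 difference 1.12 ± 0.09 SE, adjusted p = 2.1e-05 by limma). Mccc1 and Pccb, carboxylase subunits of leucine and propionate breakdown, fell by 0.74 and 0.60, and Acacb, the mitochondria-associated acetyl-CoA carboxylase, fell by 0.39. Mccc2 was at 19.4 ± 1.21 and 19.1 ± 0.648 TPM and was not called.

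Hypoxia-response genes, a set that usually includes Car9, were counted without it. All 16 were tested, 11 rose and 2 fell (81.2% called), with a median of 1.12. Egln3 rose by 3.57, Bnip3 by 2.53, Adm by 2.40 and Pdk1 by 2.31 on the log2 scale, Vegfa fell by 0.61, and P4ha1 was at 62.6 ± 2.39 and 63.6 ± 3.22 TPM and was not called. Adm was uneven, at 5.79, 5.14 and 22.9 TPM in the EpiLC libraries, and with an ESC mean of 0.895 TPM it entered the test through them. Car9 stayed at or under 1.25 TPM, with means of 0.347 ± 0.0886 TPM in ESCs and 0.963 ± 0.420 TPM in EpiLCs. Each EpiLC library was above every ESC library, replicate 1 only just. Whether Car9 follows these genes was not tested.

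**Figure D5:**
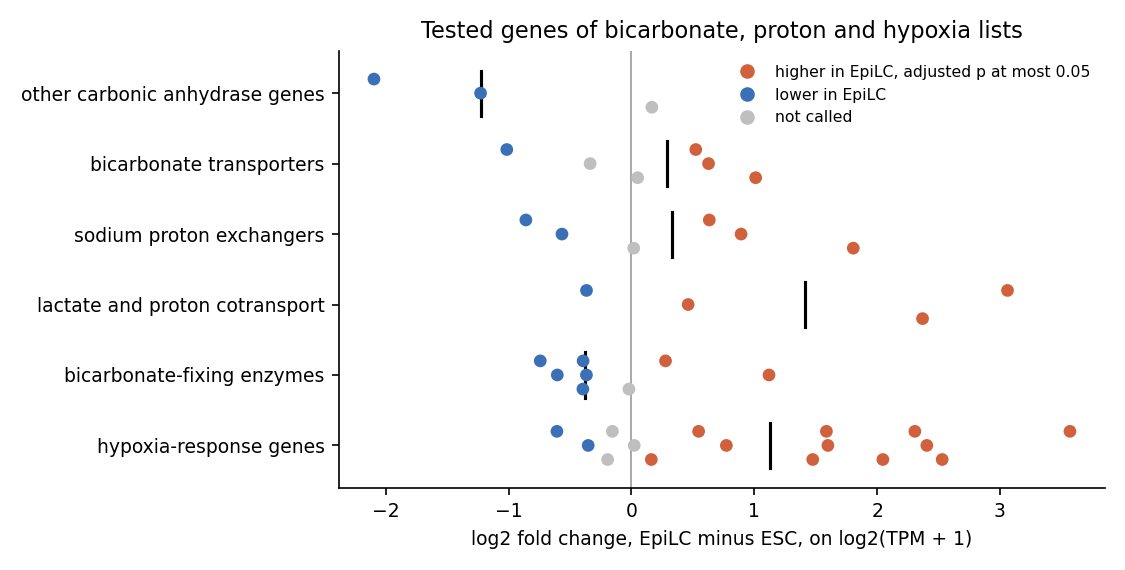
limma difference of log2(TPM + 1), EpiLC minus ESC, for each tested gene of 6 lists; points are genes, coloured by the call at an adjusted p of 0.05, and black bars are list medians. The lactate and hypoxia lists have medians of 1.42 and 1.12.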

How the data were processed

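Poly(A) RNA was sequenced with strand kept, per the labels' protocols. The authors deposited 1 table of TPM values, with 1 column per library and no pooling. Per the submitters' processing notes, FastQC, Trim Galore, STAR and Salmon were used with the build mm39 (GRCm39), and no version is named. The annotation, how transcripts were summed to genes and the meaning of a 0uM tag in the column names are not given in the sources used here. TPM keep no depth, so no counting intervals were computed and no count model was used. As TPM are shares, abundant genes shift all others.

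Genes with a mean of at least 1 TPM (14036 of 78298) were compared as log2(TPM + 1) with limma 3.58.1 in R 4.3.3 (variance trend, two-sided, Benjamini-Hochberg over all tested genes), which was tested on simulated data. The named list genes were all of a list of up to 6 genes, otherwise the 4 largest called changes, the largest called change against the majority and the most abundant uncalled gene; some genes that this rule and the likeness rule pick are not reported here. The members, lists and rules were chosen with earlier results of these data known. Chromosomes and gene order came from GENCODE M21 (GRCm38) by identifier, so no gene coordinates are given. Promoters came from RefSeq (GRCm38.p6). Alternatives were median-of-ratios or quantile scaling, a pseudocount of 0.1 or 0.5, a minimum mean of 5 TPM or none, no variance trend, a replicate block, each library left out, and both replicate 2 libraries left out, the last chosen after seeing the data. Python 3.11.15 with pandas 2.3.3, numpy 2.4.6 and matplotlib 3.10.9 made tables and plots.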

Additional observations from a re-analysis of the deposited data

How the results depend on the processing

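The number of genes called was 9397, between 8568 and 8965 with 1 library left out, and no scaling moved the median of all genes by over 0.1. Among the list genes named, only Slc9a5 lost a call. A filter at 5 TPM left 1 bicarbonate transporter and 1 sodium proton exchanger called higher, and 0 of the unchosen family genes called lower, since fewer genes were tested. The bicarbonate transporters called lower became 2, through Slc26a6, with median-of-ratios scaling, quantile normalization, no variance trend, a replicate block and without both replicate 2 libraries, and ranged from 1 to 2 with 1 library left out. With no filter they were also 2, through Slc4a1, named after its values were seen, which the filter had left untested. The sodium proton exchangers called lower became 1 with no filter and ranged from 1 to 2 with 1 library left out. The cause was not tested.

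With replicate number as a block, 9612 genes were called and the bicarbonate transporters called lower were 2. Same-numbered libraries share only a number in the labels. Their deviations correlated across genes at 0.102, 0.142 and 0.065, and each library correlated best with its own number, a hint from the data and not the design. TPM keep no depth, so how far counting limits the values under 1 TPM, such as Car7 and Car9, is unknown.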
